A study of Mus musculus with 5 samples.

Results

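The vitamin D response and calcium transport genes described here are 6 of the 41028 genes in the matrices: Vdr, Cyp24a1, Trpv6, S100g, Atp2b1 and Atp2b2. They were chosen for co-expression across the epithelial cells of 5 single-cell RNA libraries from mammary tumours of PyMT mice, in which a viral oncogene drives tumours of the mammary epithelium. The 5 libraries were 2 fresh samples on the 10x Genomics Chromium system (fresh 10x 1 and 2), 1 digest on 10x after storage for 24 h at 4 °C (stored 10x), a step meant to lower cell viability, and 2 samples on BD Rhapsody. The first BD Rhapsody sample (BD 1) is labelled fresh. The title of the second (BD 2) says fresh while its files are named for 24 h, so no storage state was assumed and it enters no main comparison, only an alternative that groups the BD samples by title. The labels give neither the promoter of the transgene nor the age, strain and number of mice, and nothing in them says whether the fresh samples came from separate animals, so p-values measure the spread between these samples, which may be technical.

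Vitamin D acts through its receptor, Vdr, a nuclear receptor that binds DNA together with a retinoid X receptor. Cyp24a1, a mitochondrial enzyme, inactivates the hormone and is one of the best known genes that the receptor switches on. In absorbing epithelia calcium enters through the channel Trpv6, is carried across the cell by S100g (calbindin D9k) and leaves through plasma membrane calcium pumps, of which Atp2b1 is found in most cells and Atp2b2 is the pump that mammary epithelium uses to load milk with calcium. In GRCm38 the genes lie on chromosome 15 (Vdr, chr15:97854425-97910630), chromosome 2 (Cyp24a1, chr2:170482708-170497145), chromosome 6 (Trpv6, chr6:41620624-41636405, and Atp2b2, chr6:113743831-114042613), chromosome X (S100g, chrX:162961992-162964599) and chromosome 10 (Atp2b1, chr10:98914406-99026143).

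The receptor pair is known to bind repeats of half-sites like AGGTCA with a spacer of 3 bases, written here in the idealised form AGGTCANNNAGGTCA. Only these exact letters were searched, so sites that vary from them were not counted. Upstream windows of 250 bases were taken from RefSeq (GRCm38.p6) for the 5 members listed there, Vdr, Trpv6, S100g, Atp2b1 and Atp2b2. Both strands were searched, so that the half-site may also be read as TGACCT. The windows of S100g and Trpv6 are shown because they were the 2 of 8 member windows that held the half-site. They are written 5′ to 3′ on the strand of the gene, which is the minus strand for both, and end at the base before the start; capitals mark the half-sites.
S100g, chrX:162964600-162964849: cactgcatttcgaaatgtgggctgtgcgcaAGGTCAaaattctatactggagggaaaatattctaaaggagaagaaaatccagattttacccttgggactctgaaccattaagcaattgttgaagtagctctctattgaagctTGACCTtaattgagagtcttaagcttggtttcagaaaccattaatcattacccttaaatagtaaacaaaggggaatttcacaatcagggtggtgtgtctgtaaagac
Trpv6, chr6:41636406-41636655: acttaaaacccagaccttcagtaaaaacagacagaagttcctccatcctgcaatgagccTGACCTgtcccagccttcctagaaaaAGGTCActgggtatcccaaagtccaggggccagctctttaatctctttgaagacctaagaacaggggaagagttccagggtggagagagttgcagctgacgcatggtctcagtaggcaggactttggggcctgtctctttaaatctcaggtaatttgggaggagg
Each window held 2 half-sites, starting at positions -220 and -107 for S100g and at -191 and -165 for Trpv6, counted back from the start. At least 1 half-site stood in 14.0% of 32851 RefSeq windows of this length, and 2 or more in 1.36%. The spaced pair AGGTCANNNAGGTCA stood in 2 of these windows and in no member window. A match is a description of the letters and no measure of binding.

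Each library is a matrix of raw counts of unique molecular identifiers (UMIs), which mark single captured transcripts. Totals ran from 29166129 UMIs in fresh 10x 1 to 59957945 in BD 1. Of the clustered cells, 1358 and 1292 of the fresh 10x samples, 2591 of stored 10x, 2408 of BD 1 and 2763 of BD 2 lay in clusters that carried epithelial markers and are called epithelial-like. All 10 epithelial markers had UMIs in every library, at a summed 3610 to 7019 CPM in these cells, against 69.9 to 137 for 6 fibroblast markers and 8.91 to 21.9 for 7 macrophage markers. Clusters led by mitochondrial, haemoglobin or mixed genes stayed unnamed and were left out. The doublet caller marked 0% to 1.03% of cells per library and under 0.5% in the 4 libraries other than fresh 10x 1, so doublets were in effect not removed. The 10x libraries shared 1 to 5 bare barcodes by pairs and the BD libraries shared 24. Levels, here and below, are summed UMIs per 1000000 UMIs of the cells named (CPM). They are not adjusted for transcript length and are not compared between genes, and their intervals cover counting error only.

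Classes are ranked among the named ones with 20 cells or more in a library. Vdr was detected in every library and was highest in epithelial-like cells. Its level was 28.7 and 28.6 CPM in the fresh 10x samples (682 and 712 UMIs), 38.3 after storage (1722), 67.1 in BD 1 (3001) and 62.0 in BD 2 (2453). The fresh 10x samples were nearly equal, and both BD libraries lay above all 10x libraries. Fibroblast-like cells had 6.75 to 16.6 CPM, macrophage-like cells 5.52 to 15.1, and the 27 to 68 mural-like cells of each 10x library had no Vdr UMI. With every cell thinned to 2000 UMIs, Vdr was found in 5.01% to 12.3% of epithelial-like cells and in 0.984% to 3.01% of fibroblast-like cells; without thinning the shares were 31.6% to 53.6% and 5% to 17.7%, at median depths of 11520 to 14823 and 11649 to 18743 UMIs per cell.

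Cyp24a1 was found mainly in epithelial-like cells, which held 92.5% to 98.3% of its UMIs. By the same measure they held 69.6% to 84.1% of the UMIs of Atp2b1. The level of Cyp24a1 in them was 14.4 CPM in fresh 10x 1 (95% exact Poisson interval 12.9 to 16.0). It was 5.55 in fresh 10x 2 (4.66 to 6.56) and 14.0 after storage (12.9 to 15.2). BD 1 had 30.2 (28.6 to 31.9), close to the 26.6 of BD 2. The fresh 10x samples therefore differed from each other by more than counting error, and stored 10x was level with the higher of them. In fibroblast-like cells the level was 0.270 to 1.63, from 1 to 11 UMIs per library. The cells of unnamed clusters had 1.38 to 18.4 CPM, and in stored 10x their 18.4 (40 UMIs) was above the epithelial-like level. Cyp24a1 was found in a minority of cells: 5.34% to 13.9% of epithelial-like cells had a UMI, and 1 to 5 cells of the 120 to 334 fibroblast-like cells of a library. At 2000 UMIs per cell these shares were 0.903% to 4.08% and 0.0419% to 0.198%. Between 7 cells in fresh 10x 2 and 94 in BD 1 held 5 UMIs or more, and the 10 richest cells of a library held 15.2% to 39.9% of its Cyp24a1 UMIs.

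The 2 genes of calcium entry and milk calcium export were close to absent. Trpv6 had 3 to 8 UMIs in the epithelial-like cells of a library, 0.0759 to 0.178 CPM, and Atp2b2 had 2 to 19, 0.0841 to 0.425 CPM. A level of 3 UMIs, which a count of 0 allows, corresponds to 0.0667 to 0.126 CPM here, so that neither gene could be followed across cell groups at this depth.

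S100g was a gene of few cells with many UMIs. Its level in epithelial-like cells was 6.10 and 1.49 CPM in the fresh 10x samples, 11.9 after storage, 5.68 in BD 1 and 1.49 in BD 2. In that order 10, 10, 53, 31 and 20 cells held any UMI. A single cell held 48 of the 145 UMIs of fresh 10x 1, 133 of the 537 of stored 10x and 109 of the 254 of BD 1, and 10 cells or fewer held 75.2% to 100% of the UMIs in each library. In BD 2 the level was higher in fibroblast-like cells, 3.51 CPM from 13 UMIs in 2 cells, than in epithelial-like cells.

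Atp2b1 was found in every named class of 20 cells or more and was highest among them in macrophage-like cells of every library, at 295, 258, 344, 349 and 363 CPM in fresh 10x 1, fresh 10x 2, stored 10x, BD 1 and BD 2. In epithelial-like cells of the same libraries the levels were 163, 162, 160, 120 and 114. The 3 10x libraries lay close together there and both BD libraries were lower. Fibroblast-like cells had 96.4 to 115, and T-like cells 156 to 217. In fresh 10x the means of T-like, mural-like and endothelial-like cells were 197, 178 and 176, beside 163 in epithelial-like cells.

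**Figure D1:**
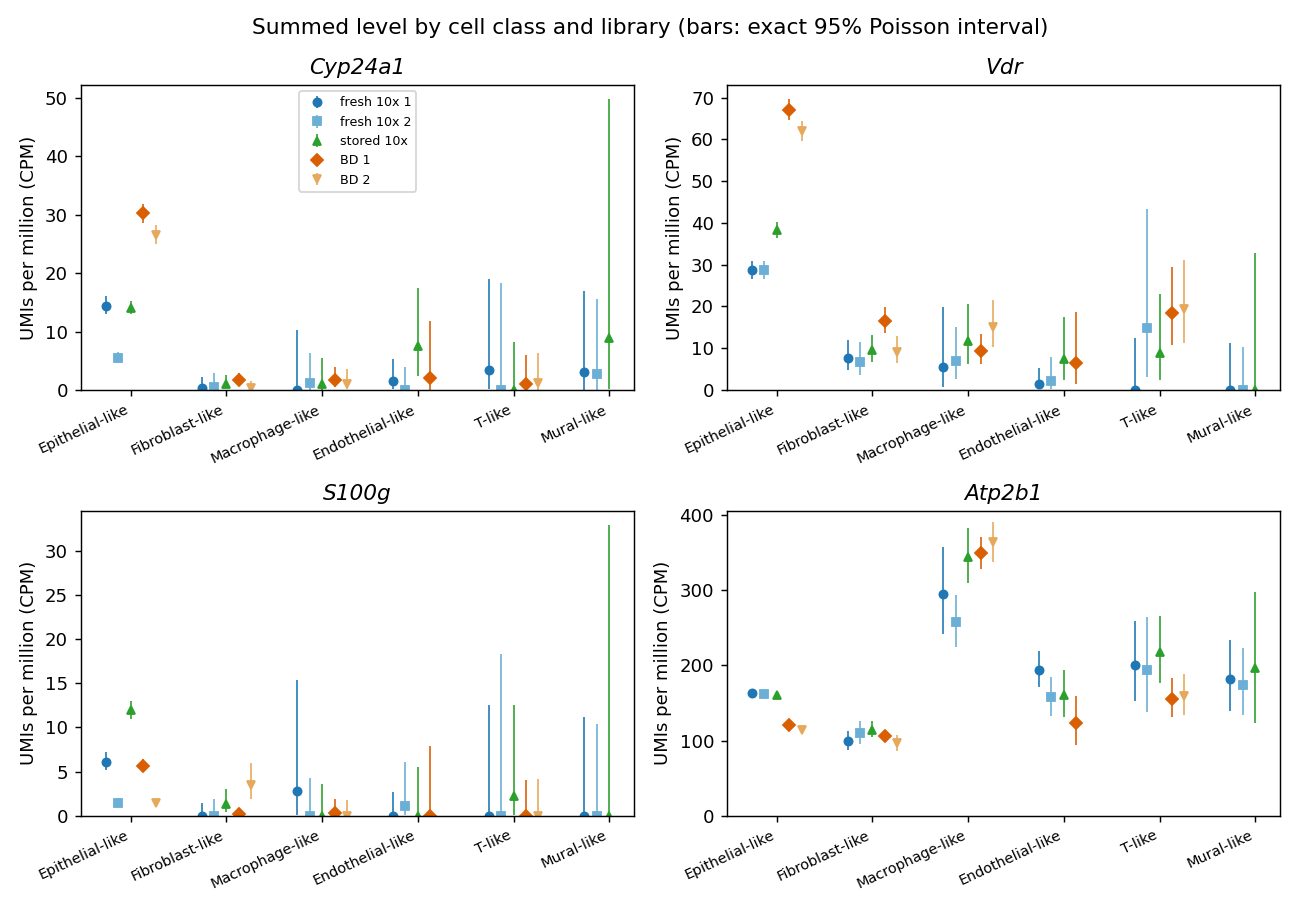
Level of Cyp24a1, Vdr, S100g and Atp2b1 (CPM, vertical axes) in each cell class (horizontal axes) with at least 20 cells, by library; points are summed counts and bars exact 95% Poisson intervals. Among these named classes Cyp24a1 and Vdr were highest in epithelial-like cells of every library, and Atp2b1 in macrophage-like cells, where it ran from 258 to 363.

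Within the epithelial-like cells, 10 clusters had enough cells in every library (20 or more) to be compared. The members and the listed pathway genes were kept out of the genes used to cluster, and the cluster values are descriptions with no test. The members peaked in different clusters. Vdr was highest in a cluster led by the basal keratins Krt5, Krt14 and Krt17 with Lgals7 and Col7a1, at 93.0, 92.1, 90.8, 171 and 240 CPM in fresh 10x 1, fresh 10x 2, stored 10x, BD 1 and BD 2. This cluster ranked first in 5 of 5 libraries, 2.49 to 4.13 times above the other epithelial-like cells. Cyp24a1 was low in the same cluster, at 1.27 to 11.9 CPM.

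Cyp24a1 was highest in a cluster led by the milk protein genes Csn1s2a, Csn2, Csn1s1 and Wap with Glycam1, where it reached 23.4, 22.5, 15.7, 61.0 and 50.5 CPM in the same order of libraries. The cluster ranked first in 4 of 5 libraries and stood at rank 5 in stored 10x, and its ratio to the other epithelial-like cells ran from 1.13 to 5.27. Its 10 leading genes also included the serum amyloid genes Saa1 and Saa2. Other clusters were close behind: one led by Dcpp1, Tspan1, Thrsp, Dcpp2 and Saa2 averaged 28.2 over the 5 libraries, and one led by 2610528A11Rik, Sfn, Cxcl1, Mt2 and Chil1 averaged 26.6, beside 34.6 in the milk protein cluster. In fresh 10x 1, 104 of the 343 Cyp24a1 UMIs came from a further cluster that had 364 cells there, 80 in fresh 10x 2 and under 20 in each other library.

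S100g and Atp2b1 shared their highest cluster, led by Aldh1a3, Klk10, Dmkn and Ltf. S100g had 95.3, 12.5, 53.6, 48.7 and 2.06 CPM there in the same order of libraries, and Atp2b1 had 439, 394, 376, 322 and 307. The cluster was first for S100g in 4 of 5 libraries and for Atp2b1 in 5 of 5, where the level was 2.55 to 3.06 times that of the other epithelial-like cells. A cluster led by Npy, Spp1, Fcgbp, Cp and C530043A13Rik came next for both, with a mean over libraries of 18.1 for S100g and 191 for Atp2b1. By library the first cluster held 6.78% to 60.7% of the epithelial S100g UMIs and the second 30.3% to 56.8%. The first held more in fresh 10x 1 and BD 1, and the second in the other 3 libraries. In BD 1 this rested on 1 cell, which held 109 of the 152 S100g UMIs of the first cluster, where the second had 77. Only 2.16% to 6.12% of the cells of the first cluster had an S100g UMI in a library. Across the 10 cluster means, Pearson's r was 0.956 between S100g and Atp2b1 (Spearman's rho 0.939), 0.357 between Vdr and Atp2b1 (rho 0.903) and -0.445 between Cyp24a1 and Vdr (rho -0.430). The clusters draw on the same 5 libraries, so these values describe the clusters and carry no p. Those with S100g rest on few cells.

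**Figure D2:**
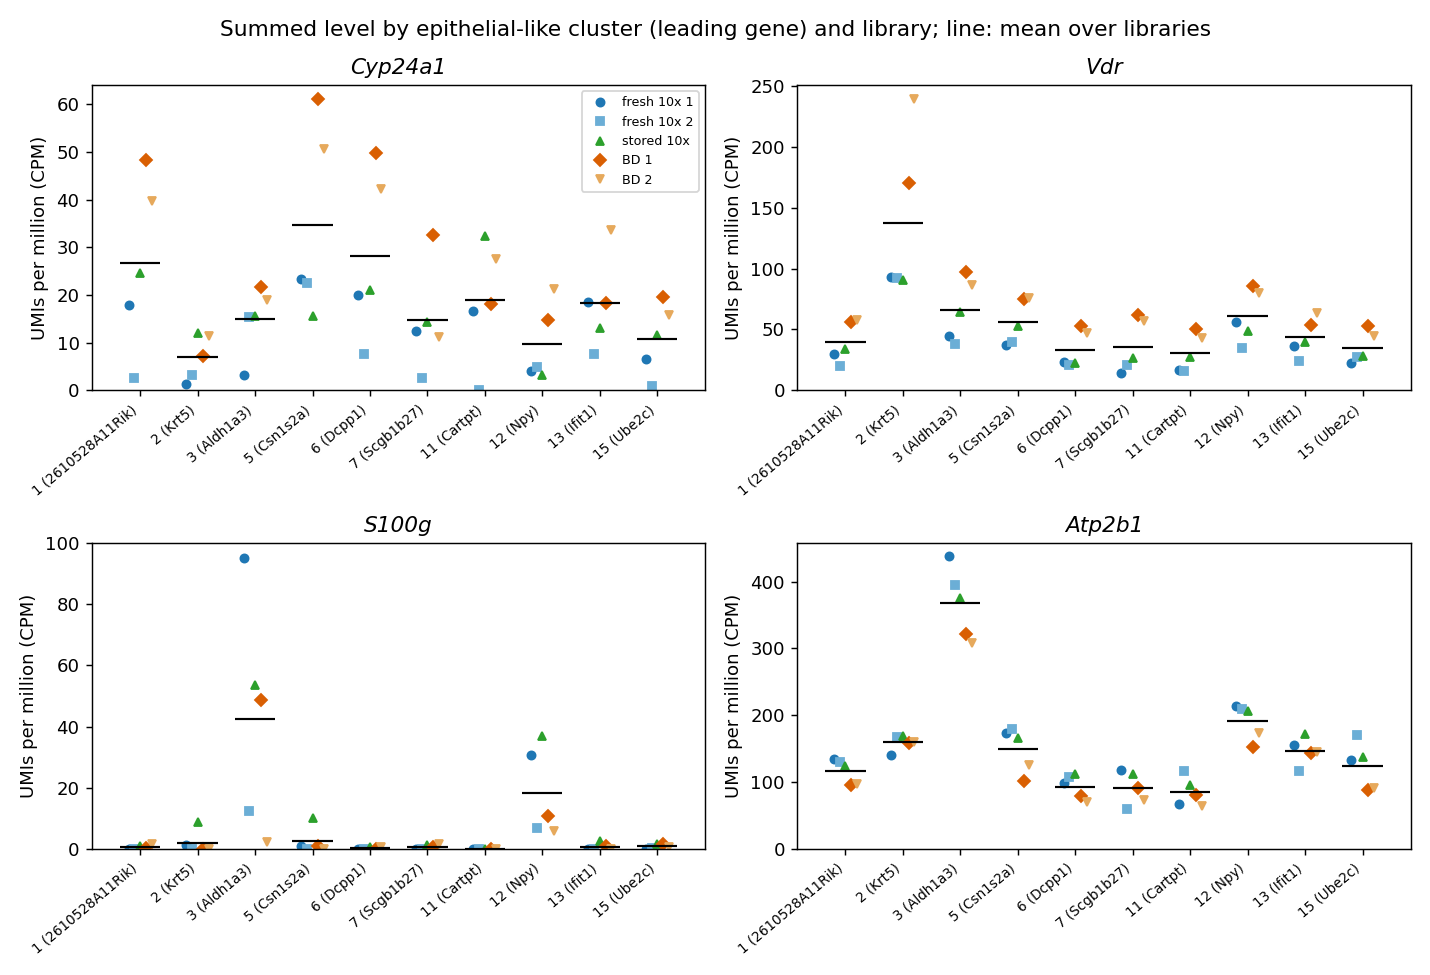
Level (CPM, vertical axes) in the 10 epithelial-like clusters, each with its leading gene (horizontal axes); points are libraries and lines the mean over libraries. Vdr stood out in the Krt5 cluster and Atp2b1 in the Aldh1a3 cluster. S100g had its highest mean in the Aldh1a3 cluster, from few cells. Cyp24a1 was spread over several clusters with its highest mean, 34.6, in the Csn1s2a cluster.

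Co-expression of the 6 genes as a set was not seen from cell to cell. Pearson's r between the log of UMIs per 10000 plus 1 was computed for the 15 pairs in each library, which gave 75 values from -0.0338 to 0.129 with a median size of 0.0129. These values come from the contrast that chose the members and are given with no test. The libraries measured neither the hormone nor the receptor protein. For the receptor gene Vdr and its known target Cyp24a1, r ran from -0.0278 to 0.0743 over the libraries with a mean of 0.0149. Cells with a UMI of both numbered 598 over the 5 libraries, beside 469 from the product of the shares; cells with a Cyp24a1 UMI were deeper, with a median of 15744 to 29187 UMIs against 11036 to 14024 in those without. In CPM, which is relative to depth, Vdr was 0.905 to 1.34 times as high in cells with Cyp24a1 as in cells without, and above 1 in 3 of 5 libraries. Thinned to 2000 UMIs the mean r was -0.00232. Without thinning, Spearman's rho had a mean of 0.0573 (0.0253 to 0.124) and r within clusters averaged 0.00567 to 0.0688 by library. Neither of these was computed on cells of equal depth, and both draw on the co-expression that chose the members.

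The pair with the highest mean r was Vdr and Atp2b1, at 0.0513 and 0.0864 in the fresh 10x samples, 0.0832 after storage, 0.129 in BD 1 and 0.126 in BD 2; thinned to 2000 UMIs the mean fell from 0.0951 to 0.0385. S100g and Atp2b1 had a mean r of 0.0501. Cells with an S100g UMI had a higher Atp2b1 level than cells without in 5 of 5 libraries, with a median ratio of 1.60 and a highest of 1.70. Both genes peaked in the same cluster, and within clusters their r averaged 0.00969 to 0.0390 by library. Cyp24a1 and S100g had r below 0 in all 5 libraries, from -0.0270 to -0.0131, and S100g was lower in cells with Cyp24a1 than in cells without in 5 of 5 libraries. In counts this sparse such r values are no finding on their own. The pooled fresh 10x matrix holds cells of the same samples that are in no matrix per sample, and in those that passed a marker gate (439 and 490 cells) r between Cyp24a1 and Vdr was -0.0115 and 0.0415.

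**Figure D3:**
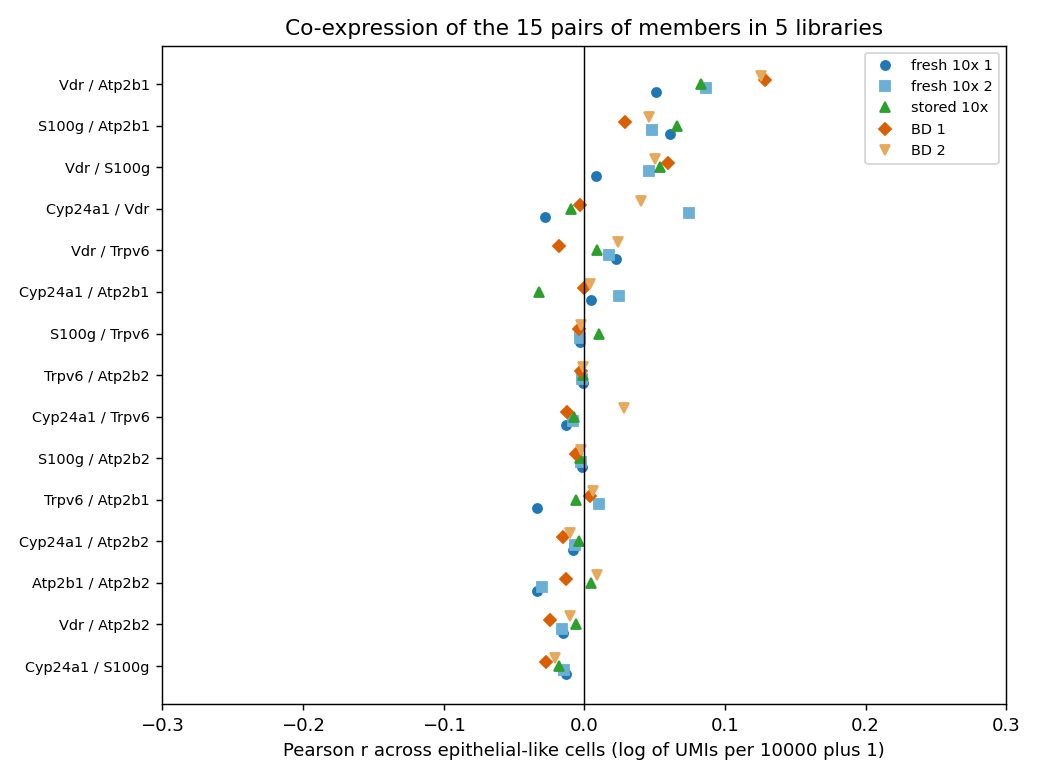
Pearson's r across epithelial-like cells (horizontal axis) for each of the 15 pairs of members (vertical axis), 1 point per library. The 75 values lie between -0.0338 and 0.129. The pairs with the sparse Trpv6 or Atp2b2 lie between -0.0338, the lowest value of all, and 0.0284.

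The genes whose pattern was most like each member were sought among 11955 genes detected in at least 1% of epithelial-like cells of every library, by the mean of r over the 5 libraries. Those nearest to Cyp24a1 were Cebpd (0.157), a transcription factor of the acute phase response, Bcl3 (0.150), a co-regulator of NF-kappaB, Cd14 (0.142), a receptor for bacterial lipopolysaccharide, Sbno2 (0.141) and Arid5a (0.135), an RNA-binding protein that stabilises Il6 mRNA. Each was higher, in CPM, in cells with a Cyp24a1 UMI in 5 of 5 libraries. The median ratios were 1.42 for Cebpd, 1.57 for Bcl3, 1.59 for Cd14, 1.36 for Sbno2 and 1.44 for Arid5a. The genes were picked by r with Cyp24a1 in these same cells, so the ratios describe the choice and give it no separate support. By the same measure 2681 genes stood above Vdr in likeness to Cyp24a1. Vdr, Atp2b1 and S100g stood nearer to each other. In likeness to Vdr 202 genes were above Atp2b1, and in likeness to Atp2b1 486 were above Vdr. In likeness to S100g 128 and 195 genes were above Atp2b1 and Vdr. For the sparse Trpv6 and Atp2b2, 1944 and 11682 genes were above Vdr, and 7225 and 11503 above Atp2b1. These ranks draw on the co-expression that chose the members. In the cells only in the pooled matrix, r with Cyp24a1 was 0.137 and 0.0992 for Cebpd in fresh 10x 1 and 2, but 0.0684 and -0.0274 for Bcl3. Saa1, an acute phase gene, averaged 1622 CPM in the milk protein cluster and 137 to 611 in the other 9. The 5 nearest genes did not all peak there: among the 10 clusters the milk protein cluster stood at rank 1 for Cd14, 3 for Bcl3, 5 for Arid5a and 7 for both Cebpd and Sbno2.

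**Figure D4:**
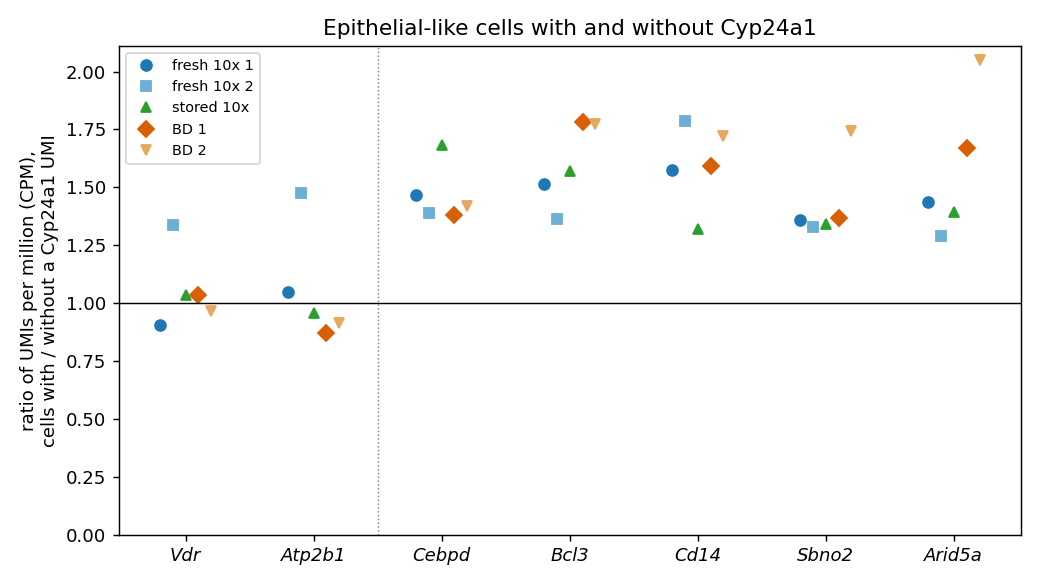
Ratio of the level (CPM) in epithelial-like cells with and without a Cyp24a1 UMI (vertical axis) for Vdr and Atp2b1 (left of the dotted line) and for the 5 genes most like Cyp24a1, which were picked by a related measure in the same cells (right); 1 point per library. Vdr and Atp2b1 scatter around 1, and the 5 genes lie between 1.29 and 2.05.

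For Vdr the nearest genes were Krt14 (mean r 0.215), Krt5 (0.194), Col16a1 (0.189), Ctgf (0.184) and Timp3 (0.183), which include the basal keratins that also led its highest cluster. For Atp2b1 they included Basp1 (0.284), Ahnak (0.268), Anxa2 (0.263), an annexin that binds membranes with calcium, and Cp (0.252). For S100g they were Crip1 (0.175), the S100 family gene S100a6 (0.155), 2210407C18Rik (0.143), Lgals3 (0.123) and Ahnak (0.116). Ahnak thus stood in the lists of both S100g and Atp2b1. The S100g list rests on the 10 to 53 cells of a library that held an S100g UMI. In the cells only in the pooled matrix Krt14 had r of 0.244 and 0.406 with Vdr, and Basp1 had 0.263 and 0.269 with Atp2b1. Trpv6 and Atp2b2 were too sparse for the measure to be read.

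The platform comparison set BD 1 against the 2 fresh 10x samples, on UMI counts summed over the epithelial-like cells of each sample, with edgeR's quasi-likelihood test and Benjamini-Hochberg adjustment over 15362 genes. Since only fresh 10x was replicated, the spread came from that pair. edgeR moderates it for each gene by a trend over all genes tested. The SE, interval and p of a gene are therefore not the spread of that gene alone between the 2 fresh samples. Trpv6 did not pass the filter on low counts. Of the 5 members tested, 3 passed an adjusted p of 0.05 (Vdr and Cyp24a1 higher, Atp2b1 lower), where 44.8% of all genes tested were called, 22.4% higher and 22.4% lower. With a background of that size the count is not a result about the members. Vdr was higher in BD 1, 67.1 against 28.7 ± 0.0185 CPM (SD, n = 2). This SD is below the counting error of the 682 and 712 UMIs in the fresh samples, so it may understate the spread. The log2 fold change was 1.06 with an SE of 0.117 (edgeR adjusted p = 3.50e-05). BD 1 lay above both fresh samples in 10 of 10 epithelial clusters. Atp2b1 was lower, 120 against 163 ± 0.896 (SD, n = 2), an SD that is also below counting error. The log2 fold change was -0.61 with an SE of 0.117 (edgeR adjusted p = 0.00156), and BD 1 lay below both fresh samples in 6 of 10 clusters and above both in 0.

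Cyp24a1 was higher in BD 1, 30.2 against 9.99 ± 6.27 CPM (SD, n = 2). The log2 fold change was 1.42 with an SE of 0.354 (edgeR adjusted p = 0.00701). BD 1 lay above both fresh samples in 9 of 10 clusters. The call was lost with DESeq2 (log2 fold change 1.41, adjusted p = 0.374, in a range of 0.000702 to 0.374 over the alternatives), and the log2 fold change was 2.34 without fresh 10x 1 and 0.92 without fresh 10x 2. S100g (log2 fold change 0.41, 95% interval -0.76 to 1.58, edgeR adjusted p = 0.563) and Atp2b2 (1.85, -0.12 to 3.81, adjusted p = 0.117) did not pass; without fresh 10x 2 the value for S100g was -0.25. The median percent of mitochondrial UMIs in epithelial-like cells was 15.3 in BD 1 beside 6.66 and 7.43 in the fresh samples. With cells over 20% mitochondrial UMIs or under 500 UMIs left out, Vdr (1.09), Cyp24a1 (1.40) and Atp2b1 (-0.61) had log2 fold changes of about the same size. Platform, tumour and library cannot be told apart with 1 BD 1 library. In epithelial-like cells the summed epithelial markers were 4325 CPM in BD 1 beside 7019 and 6873 in the fresh samples. Markers of other classes were 137 beside 86.3 and 69.9 for fibroblasts, 19.5 beside 8.91 and 11.2 for macrophages, 48.9 beside at most 32.3 for mural cells and 4.56 beside 9.92 and 8.69 for endothelium. Their part in the results was not tested.

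Of 68 further vitamin D and calcium genes, 51 were tested; 9 (17.6%) were higher and 13 (25.5%) lower in BD 1, where 22.4% of all genes were called in each direction. Their median log2 fold change was -0.07, beside 0.01 over all genes tested. Among 14 tested partners, enzymes and carriers of vitamin D, 3 were higher and 3 lower, 21.4% each way and so near that background. The receptor's partner Rxra did not pass (0.06, edgeR adjusted p = 0.819), and Cyp27b1, which makes the active hormone, had 0 to 0.253 CPM and was not tested. The carrier Gc was listed at 0 in every library.

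Of 11 tested genes that are known to respond to vitamin D in some tissue, 2 (18.2%) were higher and 4 (36.4%) lower, beside 22.4% each way over all genes. The 2 were the claudins Cldn2 (log2 fold change 1.67, SE 0.149, edgeR adjusted p = 7.55e-06), at 88.2 CPM in BD 1 beside 21.0 and 28.3 in the fresh samples, and Cldn12 (1.42), both members of tight junctions. The largest falls were those of Igfbp3 (-2.78), which binds insulin-like growth factors, and of the secreted phosphoprotein Spp1 (-2.04), followed by Txnip (-0.84). Igfbp3 was also among the 10 leading genes of the endothelial-like cluster, whose markers were lower in the epithelial-like cells of BD 1 as given above. Spp1 was among those of an epithelial-like cluster with 364 and 80 cells in the fresh samples and 4 in BD 1. The sums include that cluster, which was not among the 10 clusters compared. Spp1 also stood among those of the Npy cluster, which had 91, 165 and 545 cells. The part of these in the falls of Igfbp3 and Spp1 was not tested. Cd14, near Cyp24a1 from cell to cell, did not pass (0.40, edgeR adjusted p = 0.247).

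Of 26 tested calcium pumps, channels and sensors, 4 (15.4%) were higher and 6 (23.1%) lower, beside the same 22.4%. The mitochondrial uniporter Mcu (log2 fold change 0.89) and the endoplasmic reticulum pumps Atp2a3 (0.68) and Atp2a2 (0.65) were higher in BD 1, as was Itpr3 (0.50), a calcium release channel of the endoplasmic reticulum, while the plasma membrane pump Atp2b1 was lower. Among the lower genes were S100a10 (-0.87), Calm2 (-0.78), which encodes calmodulin, and Saraf (-0.70), a regulator of store-operated calcium entry. Casr, the calcium-sensing receptor, was listed at 0 in every library.

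**Figure D5:**
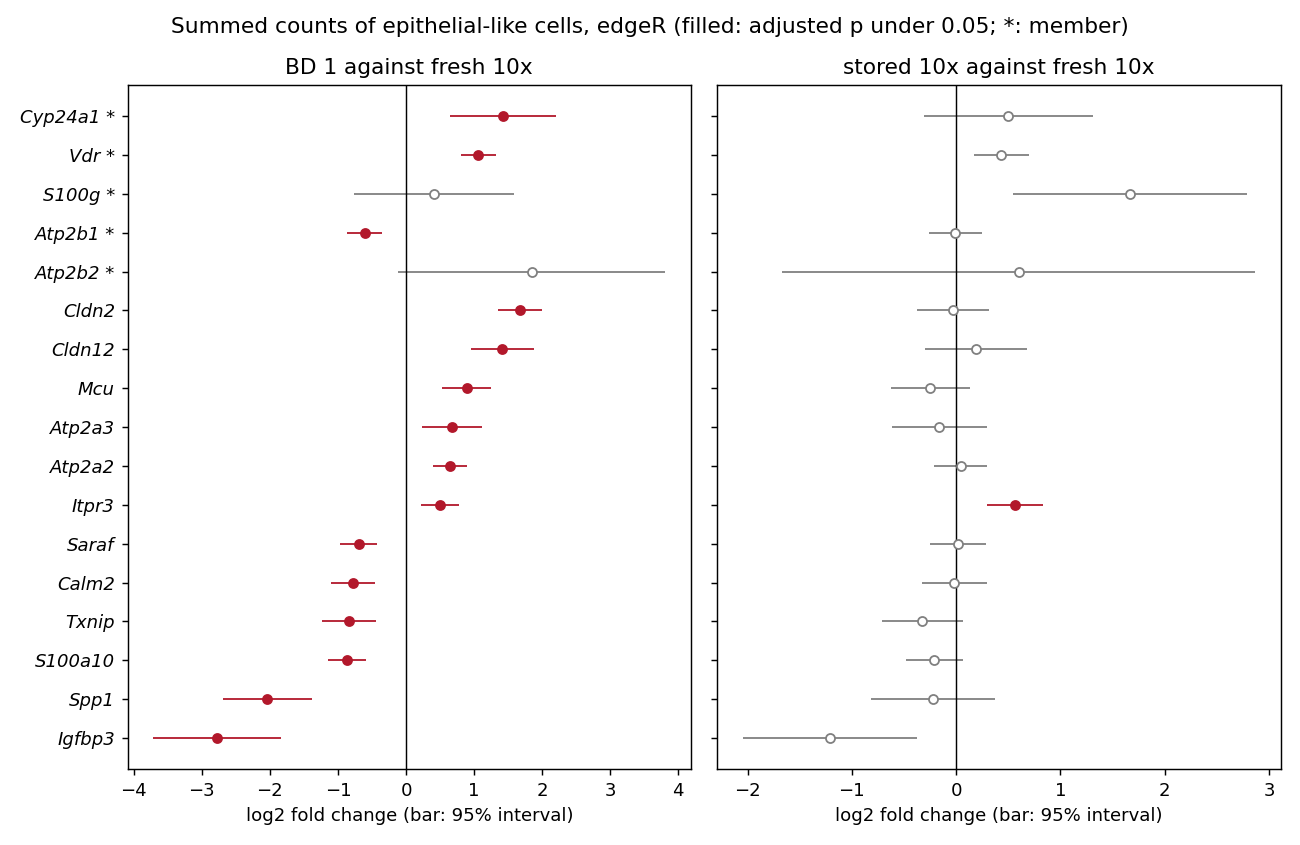
Log2 fold change (horizontal axes, bars are 95% intervals) of the 5 tested members and of the named responsive and calcium genes (vertical axis) for BD 1 and for stored 10x, each against fresh 10x; filled points passed edgeR's adjusted p of 0.05. Cyp24a1, Vdr and Atp2b1 passed in BD 1, and Itpr3 was the 1 gene shown that passed in stored 10x.

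The storage comparison set stored 10x against the same 2 fresh samples, so both comparisons share their controls. By edgeR's quasi-likelihood test 0 of the 5 members tested passed, where 2.72% of all 15362 genes were called, 1.97% higher and 0.755% lower; 2 members, Vdr and S100g, had an unadjusted p under 0.05, as had 16.9% of all genes tested, and DESeq2 called 0 of the members. Vdr was 38.3 CPM in stored 10x beside 28.7 and 28.6, a log2 fold change of 0.43 (95% interval 0.17 to 0.69, edgeR adjusted p = 0.0900). S100g was 11.9 beside 6.10 and 1.49, a log2 fold change of 1.66 (0.54 to 2.79, edgeR adjusted p = 0.119), with 24.8% of the stored UMIs in 1 cell. Leaving out fresh 10x 1 gave S100g a log2 fold change of 3.06, and leaving out fresh 10x 2 gave 0.98. Cyp24a1 (0.50, -0.31 to 1.31) and Atp2b2 (0.60, -1.67 to 2.86) did not pass. Atp2b1 had a log2 fold change of -0.01 with an interval of -0.26 to 0.24. Of the 51 further genes, 1 (1.96%) was higher and 0 lower, beside 1.97% and 0.755% of all genes tested. With that background the count is not a result about the list. The gene was Itpr3, at 37.3 beside 24.9 and 25.9 CPM (log2 fold change 0.57, SE 0.123, edgeR adjusted p = 0.0369). It was also higher in BD 1 against the same fresh samples, and its call was not followed over the alternative settings. The summed neutrophil markers in epithelial-like cells were 120 CPM in stored 10x and 38.0 to 51.6 in the fresh samples, the fibroblast markers 130 and 69.9 to 86.3, and the macrophage markers 21.9 and 8.91 to 11.2; their part in the results was not tested.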

How the data were processed

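Each deposited matrix holds raw UMI counts, whole numbers by cell and gene in the authors' files; Cell Ranger 3.0.1 and mm10 are named in the submitters' processing notes, and the authors' filters on cells are not stated there. Spellings of a symbol were merged. Cells with at least 200 genes, without called doublets, were clustered over libraries in scanpy 1.11.5 (2000 variable genes, 30 components, 15 neighbours, Leiden resolution 1.0), and clusters were named from marker lists. Counts were summed per sample and tested with edgeR 4.0.16 (TMM, low-count filter, 1 fit over all samples, adjusted p threshold 0.05), which leaves 1 residual degree of freedom; the code was tested on simulated data. DESeq2 1.42.0 was an alternative. The members, pathway lists and tests were chosen with earlier results of these data known. Named are the members, listed genes called (at most 6 per direction), the 5 genes most like each member, and the 5 leading genes of each member's highest cluster. Chosen after their values were seen were Saa1, Saa2, Rxra, Cyp27b1, Gc, Casr and the genes leading other clusters. Some items that this rule selects are not reported here.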

Additional observations from a re-analysis of the deposited data

How the results depend on the processing

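Leaving out a fresh 10x sample leaves no residual degree of freedom, so those settings give values with no test. In BD 1 against fresh 10x, 6878 genes were called, and 3781 with DESeq2. In stored 10x against fresh 10x, 418 were called, and 263 with the cell filter, 117 with the marker gate, 227 at Leiden resolution 2.0 and 140 with DESeq2; the cause was not tested. Vdr and Atp2b1 kept their call in BD 1 in each alternative with a test. The log2 fold change of S100g in BD 1, 0.41, was -0.21 with BD 1 and BD 2 grouped by title and -0.20 with a replicate block added; with the block 8656 genes were called, and without it 8582. The groups of the main fit share too few replicate numbers for a block, and the samples share only a number. Without 1 fresh 10x sample, the log2 fold changes ran from -0.25 (without fresh 10x 2) to 1.82 for S100g in BD 1, from -0.0265 (without fresh 10x 2) to 1.39 for Cyp24a1 in stored 10x and from -0.0107 to 0.0419 (without fresh 10x 1) for Atp2b1 in stored 10x. The last was 0.00935 with no filter on low counts and 0.00399 with the marker gate. Depth limits what can be said of Trpv6 and Atp2b2.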

Other observations

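BD 1 comes with 2 further matrices that hold parts of its cells. In the epithelial-like cells of part 1, part 2 and neither part (900, 1036 and 472 cells), Cyp24a1 had 38.1, 26.3 and 23.5 CPM, Vdr 60.2, 74.5 and 63.1, and Atp2b1 124, 120 and 113. S100g had 2.50, 3.39 and 18.4, and of the 144 UMIs in the cells of neither part 109 came from 1 cell.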
